A study of Mus musculus with 9 samples.

Results

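Serine/arginine-rich splicing factors (SR proteins, Srsf genes) and heterogeneous nuclear ribonucleoproteins (hnRNPs, Hnrnp genes) were examined in mouse brown fat cells that had been treated with the compound AM73, the compound AM80 or the solvent alone. The members were all gene features of the array table whose symbol starts with Srsf and a digit or with Hnrnp, keeping per symbol the transcript cluster that was brightest on average across the 9 arrays. This gave 30 genes of 30860 measured, 10 Srsf and 20 Hnrnp, chosen by name and not by their values. The study asked how gene expression answers acutely to compounds described as activators of Ppargc1a. Fully differentiated brown fat cells in culture, of strain C57BL/6, received 10 µM AM73, 10 µM AM80 or DMSO as the control for 8 h, and each of the 3 groups holds 3 whole-transcript Affymetrix arrays. The labels call the arrays of a group technical replicates, so the p-values measure only the spread between these arrays, and a group may hold a single culture. Values are log2 expression values, so a difference of 1 is a 2-fold change. They compare treatments within a gene and not genes with each other, because each gene has its own probes.

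SR proteins carry RNA recognition motifs and a tail of arginine and serine repeats. They bind mainly exonic enhancers, recruit the spliceosome to nearby splice sites and favour inclusion of the exon, and several also take part in mRNA export. Kinases of the SRPK and CLK families phosphorylate the tail and so set where in the nucleus the proteins sit. The hnRNPs coat nascent transcripts and often act against SR proteins, by masking splice sites or looping out exons, with roles in RNA stability and transport as well. Many genes of both families control their own level by splicing in an exon that sends the mRNA to nonsense-mediated decay. PGC-1α, the coactivator encoded by Ppargc1a that drives mitochondrial and thermogenic genes in brown fat, itself has an RNA recognition motif and arginine/serine-rich stretches.

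Several measures of the arrays moved with AM80. The added poly-A control transcripts had medians of 4.51 to 4.83 with DMSO, 4.08 to 4.68 with AM73 and 5.20 to 5.85 with AM80. The 6 brightest antigenomic background probe sets had means of 5.21 to 5.95 with DMSO, 4.52 to 5.48 with AM73 and 5.69 to 6.12 with AM80, and the intron controls medians of 2.49 to 2.68, 2.67 to 2.91 and 2.44 to 2.45. The part of these measures in the results was not tested beyond the covariate fit given with them. The first principal component of all genes, with 58.7% of the variance, placed the AM80 arrays at 74.7, 53.7 and 31.2, DMSO replicate 3 at 2.51 and the other 5 arrays between -41.6 and -22.6. The number that ends each array column name, which no label explains, was 5 for all 3 AM80 arrays and for replicate 2 of DMSO and of AM73, and 7 for the other 4. The input per array was 100 ng, and neither the number of cells nor the RNA per cell can be read from such data. A marker counted as above the background probes when its group mean exceeded 2.32, the highest array median of the antigenomic probe sets. The brightest of these sets exceed that level themselves. Of 12 brown fat markers 11 lay above the background probes in each group, with Dio2 near that level. The array means of the 12 ran from 7.77 to 7.90 with DMSO, 8.03 to 8.12 with AM73 and 7.93 to 7.955 with AM80. Of these 12, 2 rose and 3 fell with AM80 against DMSO, and with AM73 1 rose and 0 fell, so the markers did not move as 1 group. Ppargc1a itself went from 7.31, 7.19 and 6.67 with DMSO and 6.82, 6.80 and 6.82 with AM73 to 5.14, 5.23 and 5.83 with AM80. Of the measured markers of preadipocytes and fibroblasts (7), macrophages (5) and endothelial cells (4) none passed the test with AM80 (limma). All 7 preadipocyte and fibroblast markers lay above 2.32 in each group, but Cd34, Thy1 and Dlk1 only just, with group means of 2.42 to 2.79. The array means of these 7 were 4.55 to 4.67 with DMSO, 4.50 to 4.76 with AM73 and 4.43 to 4.82 with AM80. The macrophage and endothelial array means stayed at or below 2.81, close to the background. Even so, 3 or 4 of 5 macrophage markers and 3 of 4 endothelial markers lay above it. Of 5 skeletal muscle markers 1, Acta1, was higher with AM80 than with DMSO.

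With AM80 many of the splicing factor genes, mostly hnRNPs, fell, and with AM73 none passed the test. Against DMSO, 10 of the 30 members fell with AM80, 9 Hnrnp genes and Srsf1, and 1 rose, Srsf9, while 19 did not pass the test (limma, Benjamini-Hochberg adjusted p under 0.05 over all genes). The falls were thus 33.3% of the members, where 7.04% of all genes fell and 6.9% rose. The members are bright genes, and brighter genes pass more often: of the 5444 genes with a mean of at least 5.94, the level of the dimmest member apart from Srsf12, 22.3% fell and 22.8% rose. That set is cut only at its lower end and was not matched to the levels of the members. The median difference of the 30 members was -0.38, against 0.04 over all genes and 0.09 over those bright genes. The Hnrnp genes had a median of -0.41 with 9 of 20 lower and 0 higher, and the Srsf genes a median of -0.295 with 1 of 10 lower and 1 higher. In 22 of 30 members the 3 AM80 arrays did not overlap the 3 DMSO arrays, against 25.5% of all genes. This share was not computed for the bright genes alone.

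**Figure D1:**
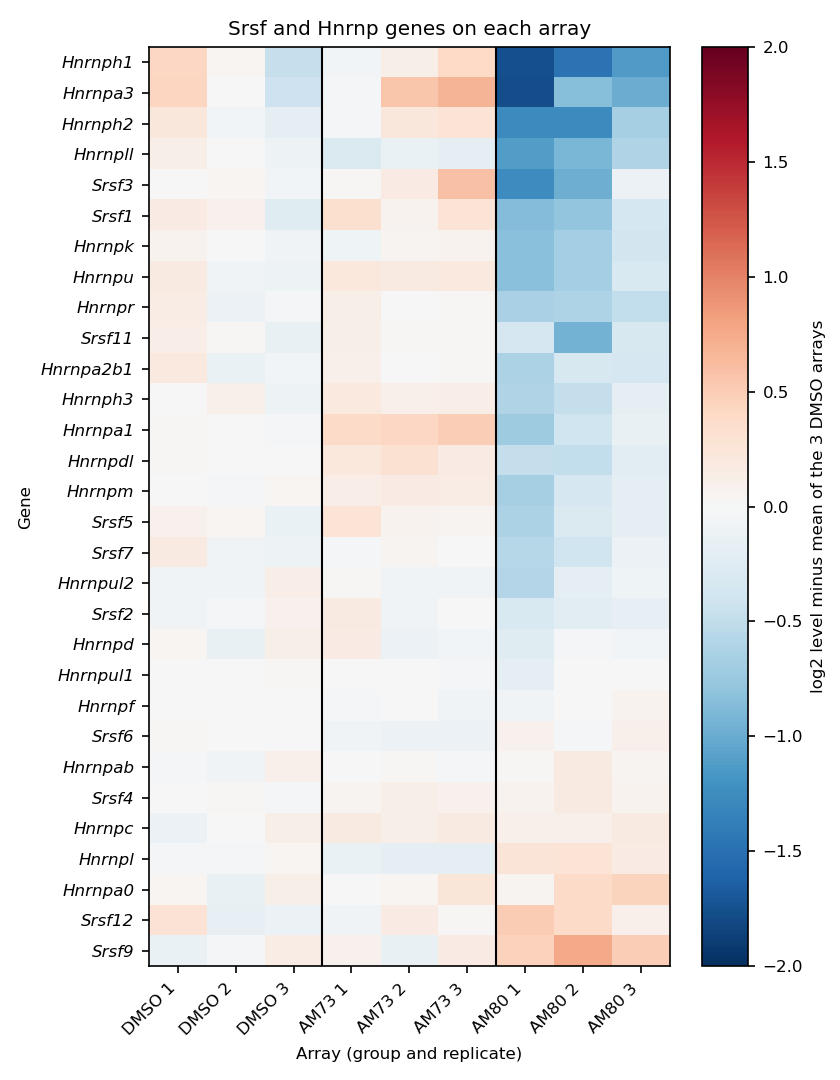
Each row is 1 of the 30 genes and each column 1 of the 9 arrays, and the colour gives the log2 level minus the mean of the 3 DMSO arrays (blue lower, red higher, scale from -2 to 2). The genes are ordered by the change with AM80. The upper rows are blue on all 3 AM80 arrays, in most rows palest on replicate 3, and the lowest row, Srsf9, is red there, a direction that turns when arrays are scaled to the poly-A controls.

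The 3 AM80 arrays did not fall equally. Over the 10 lowered members the median difference from the DMSO mean was -0.85, -0.73 and -0.43 on AM80 replicates 1, 2 and 3, against 0.158, -0.01 and -0.105 on the DMSO arrays and 0.045, 0.108 and 0.177 on the AM73 arrays. AM80 replicate 1 was the lowest of its group in 8 of the 10, replicate 3 the highest in 9, and DMSO replicate 3 the lowest of the DMSO arrays in 8. All 3 AM80 arrays lay below all 6 others in each of the 10. These 10 were picked by their fall on the same arrays, so their distance from DMSO partly reflects that choice. Over all 30 members the medians were smaller, -0.58, -0.33 and -0.155 on AM80 replicates 1, 2 and 3. They were 0.03, -0.01 and -0.035 on the DMSO arrays and 0.04, 0.06 and 0.065 on the AM73 arrays. The order of the AM80 arrays was that of the poly-A medians (5.85, 5.44 and 5.20), whose part in the falls was not tested. Among the 5 arrays whose column names end in 5, the median difference of all 30 members between AM80 and the single DMSO array was -0.32, and limma called none of all genes there. With the end number as a term in the fit of all 9 arrays 3 members fell. Leaving out single arrays moved the number of members that fell between 4 and 15: it was 5 without AM80 replicate 1, 6 without AM80 replicate 2, 15 without AM80 replicate 3, 4 without DMSO replicate 1 and 5 without DMSO replicate 2. Scaling the arrays to the poly-A controls shifted the AM80 differences from DMSO of all genes by -0.84, and 27 of 30 members then fell, as did 78.4% of all genes. The falls of Hnrnph1, Hnrnph2, Hnrnpll and Hnrnpr passed the test in each of the 9 fits that leave out 1 array. Hnrnpk lost its call without DMSO replicate 1, Hnrnpa3 without AM80 replicate 1 or without DMSO replicate 1 or 2, Srsf1 and Hnrnpu without any of these or without AM80 replicate 2, and Hnrnpdl and Hnrnph3 in 6 and 8 of the 9 fits.

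The proteins that bind runs of G, encoded by Hnrnph1, Hnrnph2, Hnrnph3 and Hnrnpf, held the largest fall of the whole group and one of the smallest differences. Hnrnph1 (chr11:50376990-50386528, plus strand, mm10), which enhances or silences exons from G runs in the exon or the flanking intron, read 7.81, 7.43 and 6.94 with DMSO, 7.34, 7.51 and 7.79 with AM73, and 5.63, 5.92 and 6.26 with AM80. It fell 2.74-fold with AM80 (difference -1.46, SE 0.23, limma adjusted p 0.00459), with no overlap of the AM80 arrays and the others. Hnrnph2 (chrX:134601179-134607060, plus strand), its near copy on the X chromosome, read 6.91, 6.63 and 6.50 with DMSO, 6.64, 6.91 and 6.95 with AM73, and 5.41, 5.40 and 6.01 with AM80. It fell 2.10-fold (-1.07, SE 0.19, adjusted p 0.00632), again on every AM80 array. A paralog this close may share probes, though the array annotation does not give those of this cluster as cross-hybridising. It does so for a dimmer Hnrnph2 cluster on chromosome 4, which was also lower with AM80 (-0.73, limma adjusted p 0.0363). Hnrnph3 (chr10:63014664-63023894, minus strand), a shorter member of the subfamily, read 6.63, 6.73 and 6.53 with DMSO, 6.82, 6.73 and 6.76 with AM73, and 6.03, 6.15 and 6.43 with AM80. Its fall was smaller, 1.34-fold (-0.43, SE 0.12), and near the threshold with an adjusted p of 0.0459. Hnrnpf (chr6:117900340-117925622, plus strand) read 8.55, 8.55 and 8.54 with DMSO, 8.50, 8.54 and 8.47 with AM73, and 8.47, 8.54 and 8.61 with AM80. Its difference was -0.01, with a 95% interval from -0.21 to 0.20, and its other 2 transcript clusters did not pass the test either. The array annotation gives the probes of both as cross-hybridising, and the dimmer of them lies on chromosome 13, outside the gene.

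The 250 bases before the transcript start of Hnrnph1 and Hnrnpf are shown because these relatives differed so much with AM80. They come from RefSeq on GRCm38.p6, the assembly also called mm10, run 5′ to 3′ in the direction of the gene, and carry in capitals each match to the core of the cyclic AMP response element, TGACG or its reverse complement CGTCA, the motif of CREB and ATF factors. Hnrnph1, at chr11:50376740-50376989 on the plus strand, holds 1 match, and Hnrnpf, at chr6:117900090-117900339 on the plus strand, holds none in this window. The matches did not follow the falls in their relatives: Hnrnph2 and Hnrnph3, which also fell with AM80, hold none. Hnrnpl, which did not fall, holds 1.
Hnrnph1: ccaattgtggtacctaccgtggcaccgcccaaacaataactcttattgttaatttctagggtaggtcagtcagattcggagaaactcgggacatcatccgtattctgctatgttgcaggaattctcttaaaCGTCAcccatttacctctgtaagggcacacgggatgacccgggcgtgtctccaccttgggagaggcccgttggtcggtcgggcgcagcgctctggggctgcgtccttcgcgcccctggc
Hnrnpf: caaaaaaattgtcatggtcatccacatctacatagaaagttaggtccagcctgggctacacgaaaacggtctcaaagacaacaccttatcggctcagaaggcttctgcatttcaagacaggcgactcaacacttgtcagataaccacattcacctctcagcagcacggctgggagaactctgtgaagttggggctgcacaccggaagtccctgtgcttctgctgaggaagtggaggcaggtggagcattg

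The hnRNP A/B proteins, which bind UAG-containing elements and are the best known exon silencers, went apart as well. Hnrnpa3 (chr2:75659244-75669407, plus strand) read 7.31, 6.88 and 6.47 with DMSO, 6.86, 7.44 and 7.56 with AM73, and 5.12, 6.03 and 5.90 with AM80. It fell 2.30-fold against DMSO (-1.20, SE 0.29, adjusted p 0.0227), with a wide spread inside each group. Hnrnpa1, the classic antagonist of Srsf1, read 10.99, 10.96 and 10.94 with DMSO, 11.34, 11.37 and 11.45 with AM73, and 10.26, 10.57 and 10.81 with AM80. The 3 groups did not overlap in Hnrnpa1, with AM73 at the top and AM80 at the bottom, but the AM80 difference from DMSO (-0.42, SE 0.14) had an adjusted p of 0.0751. Hnrnpa2b1, which also sorts mRNAs for transport, read 9.17, 8.85 and 8.92 with DMSO, 9.08, 8.99 and 9.0 with AM73, and 8.35, 8.66 and 8.64 with AM80. Its difference of -0.43 (SE 0.13) stood just outside the threshold, with an adjusted p of 0.05004. Hnrnpa0, a single-exon relative, and Hnrnpab did not pass the test with AM80. Hnrnpa0 ran from 6.28 to 6.55 with DMSO and from 6.49 to 6.88 with AM80, and Hnrnpab from 11.03 to 11.19 and from 11.11 to 11.27, so that their groups overlapped.

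Hnrnpl and Hnrnpll encode related proteins that bind CA-rich RNA, and AM80 lowered Hnrnpll while Hnrnpl lay slightly higher on the deposited scale. Hnrnpll (chr17:80029487-80062334, minus strand), known for the switch of CD45 exons in activated T cells, read 6.97, 6.85 and 6.75 with DMSO, 6.57, 6.72 and 6.67 with AM73, and 5.74, 5.95 and 6.25 with AM80. It fell 1.84-fold (-0.88, SE 0.14, adjusted p 0.00433, the lowest among the members in this comparison). Hnrnpl (chr7:28808541-28822266, plus strand) read 8.80, 8.80 and 8.86 with DMSO, 8.68, 8.63 and 8.63 with AM73, and 9.07, 9.09 and 8.99 with AM80. The AM80 arrays of Hnrnpl lay above the DMSO arrays and these above the AM73 arrays. The difference from DMSO, 0.23 (SE 0.09), did not pass with an adjusted p of 0.141, while against AM73 the gene was higher by 0.40 (SE 0.09, adjusted p 0.0118), a sign that turned with arrays scaled to the poly-A controls (-0.72).

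Of the remaining Hnrnp genes 4 fell with AM80. Hnrnpk, whose protein binds C-rich RNA and DNA through KH domains, read 10.00, 9.91 and 9.86 with DMSO, 9.84, 9.98 and 10.00 with AM73, and 9.08, 9.25 and 9.55 with AM80. It fell 1.55-fold (-0.63, SE 0.13, adjusted p 0.0127), with the 6 DMSO and AM73 arrays close together. Hnrnpu, encoding a nuclear matrix protein that binds chromatin and long noncoding RNA, read 10.02, 9.77 and 9.74 with DMSO, 10.05, 10.02 and 10.04 with AM73, and 9.01, 9.17 and 9.54 with AM80. Its fall was 1.52-fold (-0.60, SE 0.14, adjusted p 0.0224). Hnrnpr (chr4:136310942-136340681, plus strand) read 8.34, 8.08 and 8.16 with DMSO, 8.31, 8.20 and 8.21 with AM73, and 7.54, 7.58 and 7.70 with AM80. The AM80 arrays of Hnrnpr were close together, and the fall was 1.502-fold (-0.59, SE 0.11, adjusted p 0.00778). Hnrnpdl, a relative of the AU-rich element binding protein encoded by Hnrnpd, read 8.55, 8.51 and 8.51 with DMSO, 8.74, 8.83 and 8.68 with AM73, and 8.05, 8.03 and 8.29 with AM80. It fell 1.32-fold (-0.40, SE 0.11, adjusted p 0.0341), whereas Hnrnpd overlapped between the groups, from 8.93 to 9.19 with DMSO and from 8.83 to 9.05 with AM80. Hnrnpm, which binds GU-rich RNA, read 9.03, 8.98 and 9.06 with DMSO, 9.16, 9.18 and 9.17 with AM73, and 8.36, 8.69 and 8.85 with AM80. It stood below DMSO on each AM80 array without passing (-0.39, SE 0.13, adjusted p 0.0763). The differences of Hnrnpc, which packages nascent transcripts at U tracts, and of Hnrnpul1 and Hnrnpul2, the relatives of Hnrnpu, were 0.13, -0.07 and -0.29, with adjusted p of 0.514, 0.751 and 0.234.

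**Figure D2:**
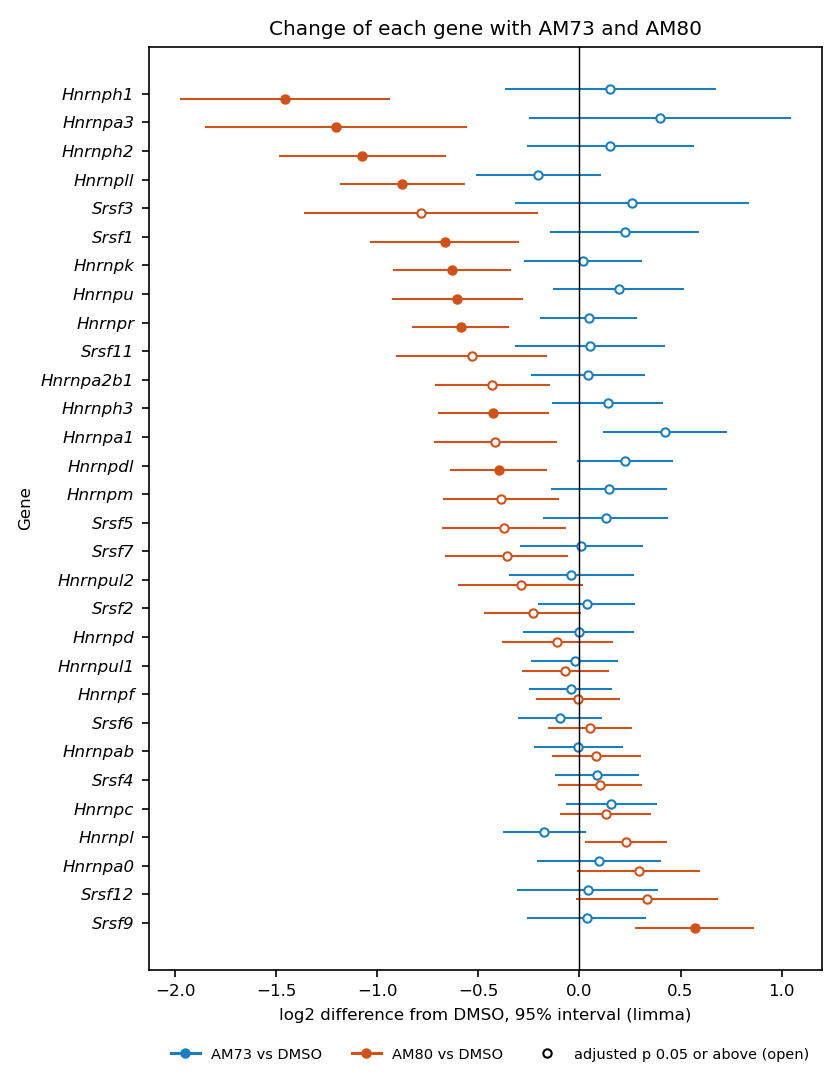
Points give the log2 difference from DMSO of each of the 30 genes with AM73 (blue) and AM80 (orange), bars its 95% interval from limma, and filled points an adjusted p under 0.05. The AM80 points run from -1.46 for Hnrnph1 to 0.57 for Srsf9, and the AM73 points, all open, from -0.20 to 0.42. With arrays scaled to the poly-A controls the AM80 points move left by 0.84 and that of Srsf9 turns to -0.27.

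Among the SR proteins Srsf1 fell and Srsf9 rose with AM80. Srsf1 (chr11:88047373-88053757, plus strand), the founding SR protein, read 9.09, 9.0 and 8.67 with DMSO, 9.24, 8.99 and 9.20 with AM73, and 8.06, 8.13 and 8.57 with AM80. It fell 1.59-fold (-0.67, SE 0.17, adjusted p 0.0253), and the highest AM80 array was just under the lowest DMSO array. Srsf9 (chr5:115327177-115333080, plus strand), its closest relative in domain layout with a much shorter tail, read 7.04, 7.15 and 7.31 with DMSO, 7.26, 7.02 and 7.33 with AM73, and 7.63, 7.92 and 7.66 with AM80. It rose 1.48-fold on the scale of the deposited values (0.57, SE 0.13, adjusted p 0.0190), with every AM80 array above the 6 others, but the sign was negative with arrays scaled to the poly-A controls (-0.27). Without AM80 replicate 2, DMSO replicate 1 or DMSO replicate 2 the rise of Srsf9 no longer passed the test.

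The promoters of Srsf1 and Srsf9 are shown in the same way, because these near relatives moved in opposite directions. The letters of other pairs varied: Hnrnph1 holds 1 match and Hnrnpf none, Hnrnpa3 and Hnrnpa0 hold 1 match each, and Hnrnpu, Hnrnpul1, Hnrnpdl and Hnrnpd hold none. For Hnrnpl and Hnrnpll no comparison was possible, as no promoter of Hnrnpll was at hand. Srsf1, at chr11:88047123-88047372 on the plus strand, holds 1 match to the cyclic AMP response element core, and Srsf9, at chr5:115326927-115327176 on the plus strand, holds none in this window.
Srsf1: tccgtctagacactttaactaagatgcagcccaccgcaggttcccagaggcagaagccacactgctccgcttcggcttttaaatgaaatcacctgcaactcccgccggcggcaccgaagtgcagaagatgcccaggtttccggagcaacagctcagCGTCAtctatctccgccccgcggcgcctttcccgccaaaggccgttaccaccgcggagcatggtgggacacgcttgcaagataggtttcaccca
Srsf9: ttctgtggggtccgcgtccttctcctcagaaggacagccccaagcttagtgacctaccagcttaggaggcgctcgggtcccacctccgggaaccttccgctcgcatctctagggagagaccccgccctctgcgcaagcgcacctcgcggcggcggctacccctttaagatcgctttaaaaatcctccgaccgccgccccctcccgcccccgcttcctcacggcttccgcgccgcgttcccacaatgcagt

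Srsf3, whose small protein links splicing to mRNA export and to choice of polyadenylation site, read 6.29, 6.33 and 6.23 with DMSO, 6.31, 6.45 and 6.87 with AM73, and 5.03, 5.31 and 6.16 with AM80. Its difference from DMSO was the fifth largest of the members in size (-0.78, SE 0.26), but the third AM80 array lay close to DMSO and the adjusted p was 0.0779. Srsf11 read 7.21, 7.10 and 6.93 with DMSO, 7.19, 7.10 and 7.11 with AM73, and 6.74, 6.14 and 6.76 with AM80, and missed the threshold as well (-0.53, SE 0.17, adjusted p 0.0629). Srsf5 read 8.19, 8.15 and 7.98 with DMSO, 8.38, 8.17 and 8.16 with AM73, and 7.47, 7.81 and 7.92 with AM80 (-0.37, SE 0.14, adjusted p 0.115). In these 3 genes all AM80 arrays were below all DMSO arrays, a separation that did not reach the threshold of the fit. Srsf7, another export adaptor, and Srsf2, which binds both G-rich and C-rich enhancers, had differences of -0.36 and -0.23 and adjusted p of 0.123 and 0.221, also without overlap. Srsf4 and Srsf6, encoding the SR proteins with the longest tails, were within 0.10 and 0.05 of DMSO, with upper 95% bounds of 0.31 and 0.26. Srsf12 stood at 2.08 to 2.76 over all 9 arrays, where the medians of the antigenomic background probe sets were 2.07 to 2.32, so this gene was hardly measured.

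Related genes of both families thus changed unequally within the same arrays, which no scaling of whole arrays alters. The difference Hnrnpf minus Hnrnph1 grew by 1.45 on the log2 scale from DMSO to AM80, Hnrnpa0 minus Hnrnpa3 by 1.497, and Srsf9 minus Srsf1 by 1.24. Hnrnpl minus Hnrnpll grew by 1.11, Hnrnpul1 minus Hnrnpu by 0.53 and Hnrnpd minus Hnrnpdl by 0.29. These 6 pairs were chosen after the values were seen and are given without a test. From DMSO to AM73 the same differences moved by -0.30 to 0.03.

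**Figure D3:**
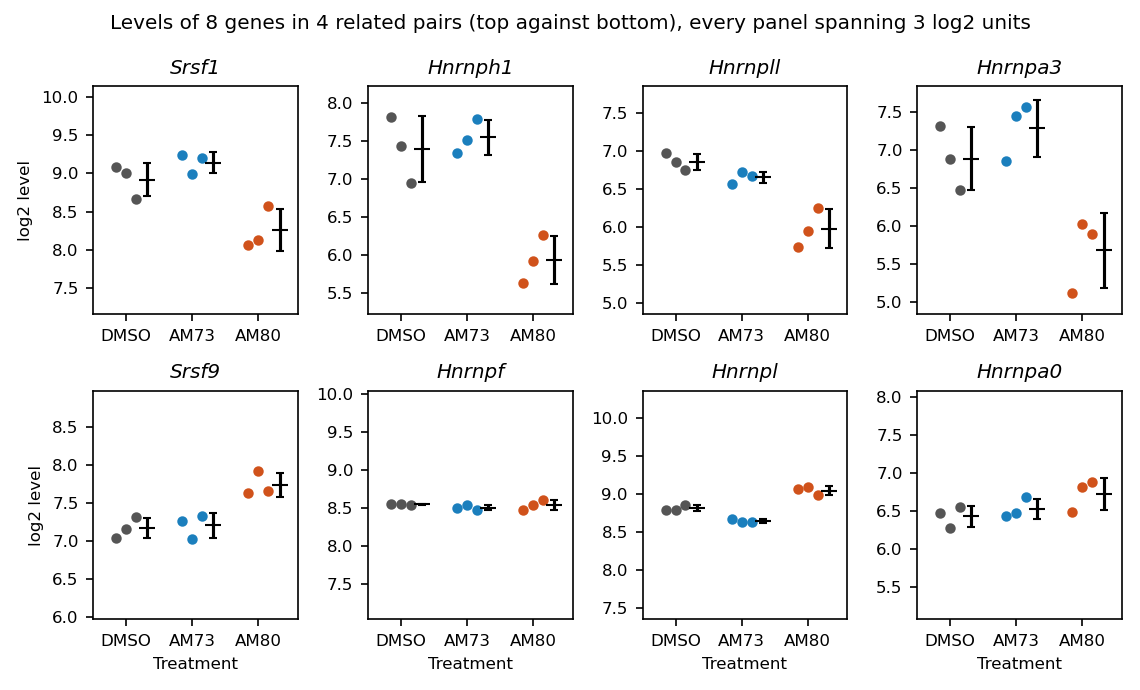
Log2 levels on each array (points, by treatment) with the group mean and SD (n = 3, black) for Srsf1, Hnrnph1, Hnrnpll and Hnrnpa3 in the upper row and their relatives Srsf9, Hnrnpf, Hnrnpl and Hnrnpa0 below. Every panel spans 3 log2 units, so distances can be compared between panels. The upper genes drop on the AM80 arrays, while Hnrnpf stays within 8.47 to 8.61 and Srsf9 and Hnrnpl sit above their DMSO arrays there, 2 positions that turn below DMSO with arrays scaled to the poly-A controls.

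With AM73, 0 of the 30 members passed the test in either direction (limma), where 0.104% of all genes rose and 0.0162% fell. Differences ran from -0.20 for Hnrnpll to 0.42 for Hnrnpa1, with adjusted p from 0.510 to 0.997, and 22 were above 0 and 8 below. The median was 0.05, against -0.02 over all genes. The groups did not overlap in 7 of the 30 members, against 12.6% of all genes. At an unadjusted p under 0.05, 1 member was higher with AM73, Hnrnpa1 (0.42, SE 0.14, unadjusted p 0.0115), and 0 were lower. Hnrnpdl (0.23, SE 0.11) and Hnrnpl (-0.17, SE 0.09, turned to 0.11 by poly-A scaling) had the next smallest p, with adjusted p of 0.665 and 0.696. The upper 95% bound of the AM73 difference was highest for Hnrnpa3 (1.05), followed by Srsf3 (0.84) and Hnrnpa1 (0.73).

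Set against each other at the same dose and time, the compounds differed in 18 of 30 members. Under AM80, 16 members were lower than under AM73 and 2 higher, Srsf9 and Hnrnpl, whereas 9.22% of all genes were lower and 9.92% higher. Among the genes with a mean of at least 5.94, 26% were lower and 31.9% higher. The median difference was -0.49, against 0.07 over all genes, and 22 of 30 members did not overlap, against 31.5% of all genes. Called here and not against DMSO were Srsf3, Srsf5, Srsf11, Hnrnpa1, Hnrnpa2b1 and Hnrnpm among the lower genes, and Hnrnpl. Both comparisons use the same AM80 arrays, so they are not independent. The largest differences were again those of Hnrnph1 (-1.61, SE 0.23, adjusted p 0.00159) and Hnrnpa3 (-1.60, SE 0.29, adjusted p 0.00411), 3.05-fold and 3.04-fold. Hnrnpa1 was 1.79-fold lower with AM80 than with AM73 (-0.84, SE 0.14, adjusted p 0.00252), and Srsf3 2.06-fold lower (-1.04, SE 0.26, adjusted p 0.0183). The 12 members that did not pass had differences between -0.37 and 0.29. For Hnrnpf the 95% interval of the difference between the compounds was -0.17 to 0.24, and for Srsf4 -0.19 to 0.22. Among the arrays whose names end in 5, the median difference of all 30 members from the single AM73 array was -0.44, and limma called 0 of them (6 lower and 2 higher at an unadjusted p under 0.05). A fit with the mean of the 6 bright background probe sets as a covariate called 0 members in either direction (11 lower and 2 higher at an unadjusted p under 0.05), and limma called 0 of all genes. Srsf9 was 1.45-fold higher with AM80 (0.53, SE 0.13, adjusted p 0.0177), a sign that turned with arrays scaled to the poly-A controls (-0.59), and it did not pass without AM73 replicate 2 or AM80 replicate 2. Of the 16 lower members 12 kept their call in each of the 9 fits that leave out 1 array, and Srsf3, Srsf5, Srsf11 and Hnrnpa2b1 lost it in 3 to 5 of them.

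Of the 30 symbols 6 have more than 1 transcript cluster, and the clusters did not always move alike. The kept cluster of Hnrnpu (chr1:178328105-178337797, minus strand) fell by 0.60, while the cluster over the 3′ part of the gene (chr1:178321108-178324171) fell by 1.56 against DMSO (adjusted p 0.00421) and by 2.07 against AM73. Relative to the kept cluster it went down by 0.95 within the arrays. The cluster at the 3′ end of Hnrnpr (chr4:136343975-136345981, plus strand) read 3.73, 3.2 and 2.75 with DMSO, 3.99, 3.99 and 4.53 with AM73, and 1.93, 2.26 and 2.23 with AM80. It was lower than DMSO (-1.09, limma adjusted p 0.0169) and than AM73 (-2.03, adjusted p 0.000919), where the kept cluster over the body of the gene fell by 0.59 and 0.63. Relative to the kept cluster, the 3′ cluster of Hnrnpr changed by -0.50 against DMSO within the arrays, and there the groups overlapped. Against AM73 that change was -1.40. With AM73 this 3′ cluster stood 0.94 above DMSO on the log2 scale without passing (adjusted p 0.333). The AM80 arrays of that 3′ cluster lay at the level of the background probe sets, so the size of its fall is a lower limit.

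For Hnrnpk and Hnrnpa1 the brighter cluster lies outside the gene. That of Hnrnpk is on chromosome 7 (83755819-83757356, plus strand), where the gene is on chromosome 13 (58391132-58403343), and that of Hnrnpa1 is on chromosome 9 (123688848-123690275, minus strand), where the gene is on chromosome 15 (103239943-103246698). The array annotation gives the probes of both Hnrnpa1 clusters, also the one at the gene, as cross-hybridising. The clusters at the genes themselves gave similar values: Hnrnpk fell by 0.61 with AM80 (adjusted p 0.0444), and Hnrnpa1 differed by -0.42 from DMSO (adjusted p 0.0673) and by -0.79 from AM73 (adjusted p 0.00290). Against AM73 the cluster at the Hnrnpk gene no longer passed (-0.50, adjusted p 0.0782).

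**Figure D4:**
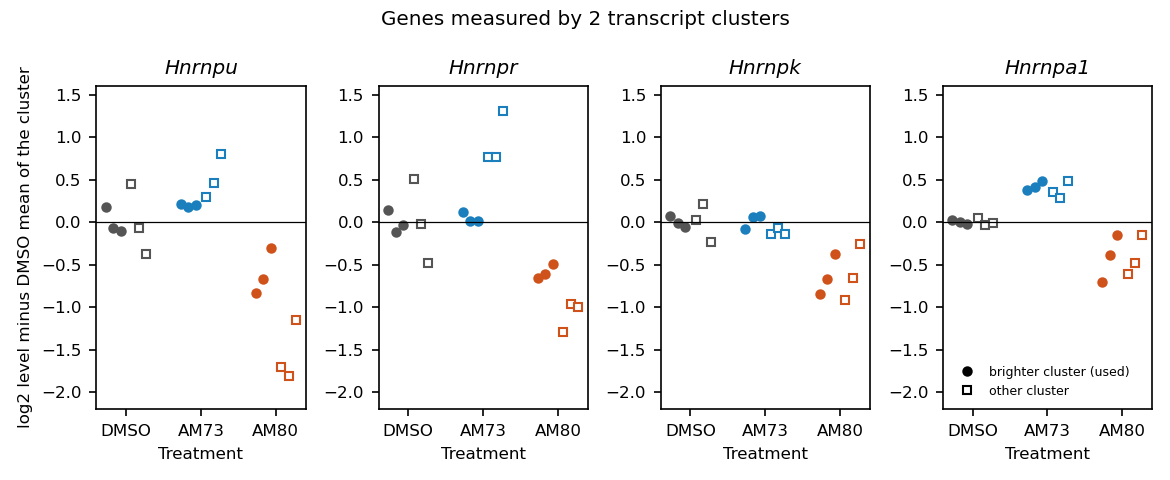
Log2 level minus the cluster's own DMSO mean for the brighter cluster (filled circles) and the other cluster (open squares) of Hnrnpu, Hnrnpr, Hnrnpk and Hnrnpa1, 1 symbol per array. The squares of Hnrnpu and Hnrnpr, which lie over the 3′ part of each gene, reach farther down with AM80 than the circles, while the 2 clusters of Hnrnpk and of Hnrnpa1 lie side by side.

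The splicing genes beyond the members are given as counts. They are to be read against the 7.04% of all genes that fell and 6.9% that rose with AM80. Of the genes with a mean of at least 5.94, 22.3% fell and 22.8% rose. Each of these lists also holds dimmer genes, such as Srpk3, Celf3 and Smg8, so for the lists those shares are no matched background. Of 11 kinases and importers of SR proteins 4 fell and 1, Dyrk1b, rose with AM80 against DMSO (36.4% and 9.09%), with a list median of -0.55. Those that fell were Clk1 (-1.31, SE 0.21, adjusted p 0.00459) and Clk4 (-1.37, SE 0.25, adjusted p 0.00774), nuclear kinases that release SR proteins from speckles, Prpf4b (-1.41, SE 0.25, adjusted p 0.00691), a kinase of the spliceosome, and Srpk2 (-1.04, SE 0.20, adjusted p 0.00940), a cytoplasmic kinase that primes the tail for import. Clk1 went from 7.06, 6.63 and 6.44 with DMSO and 6.96, 7.09 and 7.28 with AM73 to 4.98, 5.56 and 5.67 with AM80, without overlap. Of 28 SR-related proteins, many of which carry arginine/serine-rich stretches, 15 fell and 1 rose, Scaf1 (53.6% and 3.57%), with a median of -0.57. The lowest adjusted p there were those of Rbm25, Scaf11, Luc7l3 and Rsrc2, with differences of -1.63, -1.36, -1.31 and -1.51. Rbm25 read 8.36, 7.88 and 7.61 with DMSO, 8.29, 7.93 and 8.21 with AM73, and 6.03, 6.26 and 6.66 with AM80, again without overlap.

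The hnRNP proteins that carry other symbols had 8 of 25 lower (32%), 3 higher (12%, Pcbp1, Pcbp4 and Khsrp) and a median of -0.08. Of genes with a mean of at least 5.94, a level that part of this list does not reach, 22.3% fell and 22.8% rose. Ptbp3, a relative of the polypyrimidine tract binding protein, fell by 2.02 and Matr3, a nuclear matrix protein, by 1.58, and Syncrip, the relative of Hnrnpr, and Taf15 by 0.97 and 0.89. Of 30 other regulators of exon choice 10 fell (33.3%) and 1 rose (3.33%), Rbm10, with a median of -0.07. Mbnl1 and Mbnl2, the muscleblind proteins, fell by 1.96 and 1.70, Qk, the quaking protein, by 1.37, and Tia1, a U-rich intron binder, by 1.17.

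Of 79 measured genes of the core spliceosome 16 rose (20.3%) and 11 fell (13.9%) with AM80, and the median was 0.15, on the deposited scale. Neither share is above that of genes with a mean of at least 5.94, 22.8% higher and 22.3% lower, a level that part of this list does not reach. Among those that fell, Prpf39 fell by 1.96, U2surp by 2.17 and Prpf38b by 1.37, which act at early steps around the U1 and U2 particles and the tri-snRNP. Of 15 genes of the exon junction complex and of nonsense-mediated decay 3 rose and 3 fell (20% each), with a median of 0.04. Over all genes 6.9% rose and 7.04% fell, and a share for genes as bright as this list was not computed. The falls were those of Upf2 (1.72), the kinase gene Smg1 (1.54) and Pnrc2 (1.36), which links decay to decapping, and the rises those of Upf1, Smg5 and Smg9. With AM73, 0 genes of any of these 6 lists passed the test. Rises with AM80 in these lists are those of the deposited scale, since scaling to the poly-A controls lowers every AM80 difference from DMSO by 0.84, and whether 1 list moved more than another was not tested.

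**Figure D5:**
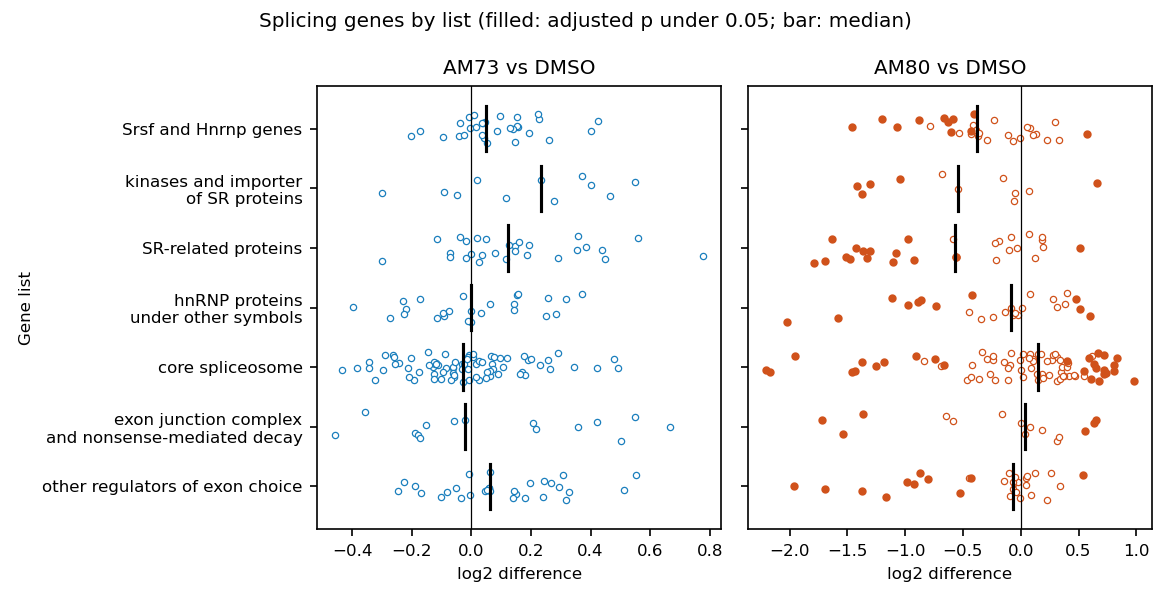
Log2 differences from DMSO with AM73 (left) and AM80 (right, a wider axis) for the Srsf and Hnrnp genes and 6 lists of other splicing genes, 1 point per gene, filled where the adjusted p is under 0.05, with the list median as a bar. All AM73 points are open. With AM80 the kinases and the SR-related proteins have medians of -0.55 and -0.57 and the core spliceosome one of 0.15, which lies below 0 when arrays are scaled to the poly-A controls.

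Gene length and promoter letters are given as features that the choice of members did not use. The 10 lowered members span 5.88 to 35.04 kb of the genome with a median of 10.79 kb, and the 19 without a call have a median of 13.72 kb. Over all genes those lower with AM80 had a median span of 44.64 kb and those higher 10.64 kb, so the lowered splicing factors are shorter in the median than the lowered genes as a whole. For 28 of the 30 members RefSeq promoters of 250 bases were at hand (not Hnrnpll and Hnrnpul2), with a GC content of 46.0 to 81.2% and 6 to 46 CpG each. The TGACG core, searched on both strands, was found in 14 of 28 (50%), against 17.8% of all 32851 promoters and 27.5% of the 16542 with at least 6 CpG. The last set shares only the lowest CpG count of the members. TGACG itself holds a CpG, so these shares are not matched for CpG content and show no excess. The core was present in 5 of 9 lowered members and in 9 of 19 of the others. The hypoxia response core, ACGTG or GCGTG on either strand, was found in 57.1% of the members, 38.6% of all promoters and 59.1% of those with at least 6 CpG. TATAAA, also on either strand, was found in 10.7%, 12.4% and 5.62%. In 2 members the first 2 motifs overlap. A match is a description of letters, and the motifs were chosen with the results of these data known.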

How the data were processed

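The 9 arrays were used as deposited. Their values are log2 expression values that the authors computed by RMA, per the file headers, and per the submitters' processing notes in Affymetrix Expression Console 1.41, with NetAffx annotation build 35. The authors' deposited q-value columns served as an alternative; how the authors made the q-values is not given in the sources used here. Depth is not defined for arrays, and the number of arrays limits the precision. Of 41345 features 33793 were gene features, and 32202 with a symbol gave 30860 genes, 1 cluster per symbol.

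All 9 arrays were fitted together with limma 3.58.1 (lmFit and eBayes, R 4.3.3, 6 residual degrees of freedom), two-sided, with Benjamini-Hochberg adjustment over all genes and a threshold of 0.05. The script was tested on simulated data. The members, the gene lists, the motifs and the tests were chosen with earlier results of these data known. Values of every array are given for members that passed in any comparison or had 1 of the 3 smallest p-values in one, and of each other list up to 4 genes with the smallest adjusted p among those that passed with AM80 against DMSO are named, apart from an item not reported here; single rises, Ppargc1a and Hnrnpf were named after their values were seen. Samples of equal number were not paired in the fit. Alternatives were other filters, clusters, scalings, covariates, weights and moderation, the replicate block, the 2 groups alone and leaving out each array; arrays of 1 end number and clusters at the gene itself were added after seeing the data.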

Additional observations from a re-analysis of the deposited data

How the results depend on the processing

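Most alternatives kept the directions and moved the number of calls. The members that fell with AM80 against DMSO numbered 10, and 27 with arrays scaled to the poly-A controls (78.4% of all genes fell), 6 with the replicate block, 5 with only the 2 groups compared, 5 with the bright antigenomic probe sets as a covariate (15 at an unadjusted p under 0.05), 3 with the end number of the array names as a term (12), and 0 with the authors' deposited q-value or with only the arrays of end number 5 (4 at an unadjusted p under 0.05 by limma), settings that called 2 and 0 of all 30860 genes lower; leaving out 1 array gave 4 to 15. The single rise became 0 with poly-A scaling, the end number, the covariate, the authors' q-value and end number 5 alone (1 at an unadjusted p under 0.05), and 0 to 1 without 1 array. Against AM73 the 16 falls became 30 with poly-A scaling (91.3% of all genes fell), 0 with the covariate (11 at an unadjusted p under 0.05), where limma called 0 of all genes, and 0 with end number 5 alone (6 at an unadjusted p under 0.05), and 12 to 17 without 1 array; the 2 rises became 0 with poly-A scaling, the covariate and end number 5 alone, 1 with the end number or the authors' q-value, and 1 to 2 without 1 array. With AM73 against DMSO 0 members passed in any setting. Poly-A scaling reversed Hnrnpl with AM73 (0.11), Srsf9 with AM80 (-0.27) and, against AM73, Hnrnpl (-0.72, adjusted p 0.0137) and Srsf9 (-0.59, adjusted p 0.0432), since it shifts every gene alike; it moved the members' medians to 0.34, -1.22 and -1.615, and leaving out AM80 replicate 1 moved those of AM80 to -0.25 and -0.37. For the other changes the cause was not tested. Over 22 alternatives the falls of Hnrnph1, Hnrnph2 and Hnrnpll with AM80 against DMSO were called in 20 each and that of Hnrnph3 in 7. Same-numbered arrays did not deviate together (9 pairs, correlations of -0.298 to 0.0682, 0 of 9 arrays closest to their own number), so the numbers give no pairing; against AM73 the replicate block left 14 falls and 2 rises.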
